A study of Mus musculus with 6 samples.

Results

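The unfolded protein response and the integrated stress response were described here through 30 genes: 4 stress sensors, 4 transcription factors, 11 chaperones and folding factors of the endoplasmic reticulum (ER), 4 genes of ER-associated degradation, and 7 targets or feedback regulators of the transcription factor ATF4. They were chosen by symbol from a table of 43346 genes. All 30 were present, and all 30 passed the filter on low counts that left 16934 genes for testing. RNA came from the cerebellum of mice aged 15 months, 3 homozygous for a Tmem106b knockout allele (Tmem106b-/-, KO) and 3 wild type (Tmem106b+/+, WT), with 1 female and 2 males per genotype and 1 library per mouse. The female is replicate 1 in each genotype. The labels name no strain, no treatment and no further detail of the allele. The TMEM106B protein sits in the membrane of late endosomes and lysosomes, and the comparison addresses what its loss does to the aged cerebellum.

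Proteins that enter the secretory pathway fold in the ER with the help of chaperones. When unfolded protein builds up, the sensors IRE1 (gene Ern1), PERK (Eif2ak3) and ATF6 signal to the nucleus. IRE1 splices the messenger of Xbp1, ATF6 is cleaved into a transcription factor, and PERK phosphorylates the initiation factor eIF2, which lowers protein synthesis in general but favours translation of ATF4. GCN2 (Eif2ak4) feeds amino acid shortage into the same eIF2 signal, the integrated stress response. Gene-level counts measure the amount of these messengers and show neither splicing of Xbp1, cleavage of ATF6, phosphorylation of eIF2 nor translation of ATF4. Purkinje cells, the output neurons of the cerebellar cortex, hold a large smooth ER that stores calcium.

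Library totals ran from 25245778 to 28584165 counts in KO and from 29658618 to 31135185 in WT. Tmem106b stood at 69.7, 67.9 and 62.7 CPM in KO mice, against 230.5, 267.3 and 238.2 CPM in WT mice, where CPM denotes counts scaled to library size with the TMM method. This was 27.2% of the WT level, a log2 fold change of -1.88 (standard error, SE, 0.08, edgeR adjusted p = 1.37e-04). Xist and Ddx3y counts went with the labelled sex in 6 of 6 libraries. Markers of granule neurons summed to 6952.3 to 7343 CPM in KO and 6420.2 to 7005.7 CPM in WT, while the highest of 5 forebrain markers reached 8 CPM in any library. Among all genes tested, 48 had a Benjamini-Hochberg adjusted p under 0.05 between the genotypes by the quasi-likelihood method of edgeR, Tmem106b included. Of these 23 were higher and 25 lower in KO, against 0 and 1 without WT replicate 2 and 67 and 89 without KO replicate 3.

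None of the 30 stress response genes was among them. Over all genes tested 0 of 30 rose and 0 of 30 fell, where 0.136% of all genes tested rose and 0.148% fell (0.283% in either direction). At an unadjusted p under 0.05 in edgeR, Eif2ak3 and Eif2ak4 were the 2 members that differed, both higher in KO, where 8.96% of all genes tested did and 4.71% were higher. The number of members at that unadjusted p was 6 without WT replicate 2 and 1 without WT replicate 3 or KO replicate 2. limma-voom called 0 members (0.254% of all genes in that fit). DESeq2 called 1, Eif2ak3 (1.43% of all genes in that fit). The median log2 fold change of the 30 genes was -0.06, with 20 below 0, against 0.00 for all genes tested, with 49.9% below 0. Without WT replicate 3 that median was 0.06, with 12 of 30 below 0. The members' log2 fold changes lay between -0.26 and 0.36, so that 0 of 30 reached 0.5 in size, as 6.06% of all genes tested did.

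The 4 sensor genes were higher in KO mice without overlap between the genotypes, as were 7.77% of all genes tested. None of the 4 passed the test over all genes. Eif2ak3, on chromosome 6 at 70844515 to 70905245 (mm10 build), encodes PERK, the ER kinase that phosphorylates eIF2. It stood at 59.4, 58.7 and 59.7 CPM in KO mice, against 49.6, 48.5 and 44 CPM in WT mice. The 3 KO mice lay within 1.02-fold of one another and above all WT mice. The means were 59.3 ± 0.488 CPM in KO and 47.4 ± 2.97 CPM in WT (SD, n = 3 each), a log2 fold change of 0.32 (SE 0.08, 95% interval 0.15 to 0.50, edgeR adjusted p = 0.189). It passed in DESeq2 (0.33, SE 0.10, adjusted p = 0.046) and in edgeR with trends of GC content and gene length removed from each library (0.33, SE 0.06, adjusted p = 0.027), a fit that called 1.62% of all genes tested in it. The adjusted p ran from 0.027 to 0.726 over 16 alternatives, with log2 fold changes of 0.28 to 0.36.

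Eif2ak4 encodes GCN2, the cytosolic kinase that senses uncharged transfer RNA. It was measured at 38.3, 39 and 39.9 CPM in KO mice, against 30.9, 35.2 and 34.2 CPM in WT mice. Here too each KO mouse was above each WT mouse (log2 fold change 0.23, SE 0.08, 95% interval 0.05 to 0.41, unadjusted p = 0.0197, edgeR adjusted p = 0.423). Ern1 encodes IRE1, the kinase and endoribonuclease that splices Xbp1, and gave 20, 18.9 and 18.9 CPM in KO mice against 16.2, 18 and 18.1 CPM in WT mice. The gap between its genotypes was small beside the spread of the WT mice, and the female pair set most of it (log2 fold change 0.15, SE 0.10, edgeR adjusted p = 0.733). Atf6, whose protein is the sensor that becomes a transcription factor, gave 104.1, 103.3 and 103.9 CPM in KO mice against 98.9, 97.8 and 95 CPM in WT mice. Its log2 fold change was 0.09 (SE 0.06, 95% interval -0.05 to 0.24, edgeR adjusted p = 0.730).

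**Figure D1:**
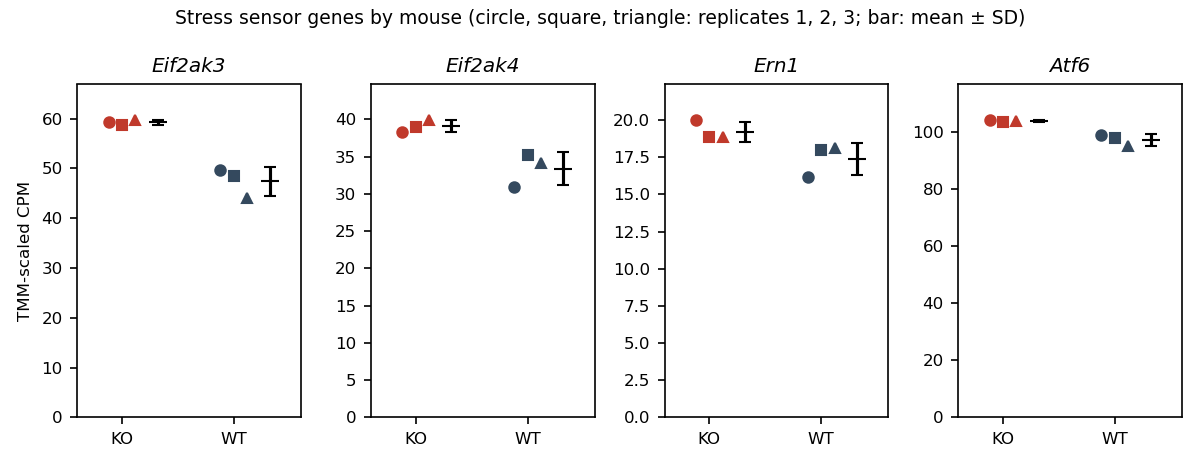
Expression of the 4 sensor genes in each mouse, in TMM-scaled CPM on axes that start at 0. Circles, squares and triangles are replicates 1, 2 and 3, and bars give the mean ± SD of 3 mice; in each panel the 3 KO mice lie above the 3 WT mice, with the widest gap for Eif2ak3 (59.3 against 47.4 CPM on average).

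Non-overlapping values, higher in KO, were found in 5 of 30 members (7.77% of all genes tested), the 4 sensors and Trib3, and lower values without overlap in 0 of 30 (6.35%). The summed level of the 4 sensors was 220 to 222.3 CPM in KO and 191.3 to 199.5 CPM in WT. Cell type markers moved with genotype in the same libraries. Purkinje cell markers summed to 8380.5 to 9631.4 CPM in KO and 12314.9 to 13331.2 CPM in WT. Of these, 14 of 14 were below a log2 fold change of 0 (49.9% of all genes tested) and 6 were past the threshold (0.148% lower over all genes tested). Microglial markers summed to 411.2 to 481.8 CPM in KO and 261.5 to 321 CPM in WT. Of these, 12 of 13 were above 0 (50.1% of all genes tested) and 3 were past the threshold (0.136% higher over all genes tested). All markers of both lists passed the filter on low counts. Their part in the sensor values was not tested, and in whole tissue fewer cells of a type and less RNA per cell cannot be told apart.

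The transcription factors downstream of the sensors did not differ by more than the spread between mice. Atf4, the effector of eIF2 phosphorylation, stood at 139.2, 130.4 and 140.6 CPM in KO mice, against 150, 132.6 and 144.7 CPM in WT mice. The groups overlapped, and the 95% interval of the log2 fold change ran from -0.22 to 0.10 (estimate -0.06, edgeR adjusted p = 0.848). Ddit3 encodes CHOP, a pro-apoptotic factor induced through ATF4. It gave 16.4, 20.3 and 23.1 CPM in KO mice and 23, 19.2 and 23.6 CPM in WT mice. The lowest mouse was the KO female, and the other 2 KO mice lay within the WT range (log2 fold change -0.15, SE 0.14, edgeR adjusted p = 0.814). Atf5, a related factor of the stress response, was at -0.05 (SE 0.11, edgeR adjusted p = 0.911).

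Xbp1, whose spliced messenger encodes an activator of chaperone and degradation genes, varied widely among mice of 1 genotype. Its level was 154.7, 119.7 and 109.4 CPM in KO mice, against 143.5, 100.8 and 156.5 CPM in WT mice. The highest and the lowest value of all 6 were both WT, 1.55-fold apart (log2 fold change KO over WT -0.08, SE 0.15, edgeR adjusted p = 0.911). Ddit3 and Atf5 overlap more abundant genes, with Mars at 334% of the counts of Ddit3 and Nup62 at 131% of those of Atf5. Without a stated strand setting, reads in such overlaps cannot be told apart.

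The ER chaperones also varied among mice of 1 genotype. Among them Sdf2l1, Hyou1, Pdia6 and Creld2 did so less in KO than in WT, and Dnajb9 and Hsp90b1 less in WT than in KO. Hspa5, on chromosome 2 at 34771970 to 34777547, encodes BiP, the main Hsp70 chaperone of the ER. It was measured at 437.6, 293.9 and 264.7 CPM in KO mice, against 369.6, 278.1 and 443.3 CPM in WT mice. KO replicate 1 and WT replicate 3 were nearly level at the top, and KO replicate 3 and WT replicate 2 were the 2 lowest. The means were 332.1 ± 92.5 CPM in KO and 363.6 ± 82.8 CPM in WT (SD, n = 3 each), with a log2 fold change of -0.16 (SE 0.19, 95% interval -0.61 to 0.28, edgeR adjusted p = 0.844).

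Calr encodes calreticulin, a lectin chaperone that also buffers ER calcium. It followed the same order of mice, with 372.2, 311.4 and 274.9 CPM in KO mice and 362.6, 289.2 and 416.5 CPM in WT mice (log2 fold change -0.17, SE 0.14, edgeR adjusted p = 0.785). Manf, a secreted ER stress protein with trophic effects on neurons, gave 52.1, 38.4 and 32.6 CPM in KO mice and 44.8, 33.1 and 51.6 CPM in WT mice. Its KO female was 1.59-fold above KO replicate 3, and WT replicate 3 was 1.56-fold above WT replicate 2. Manf overlaps Vprbp, which held 142% of its counts. Sdf2l1, a component of ER chaperone complexes, had the widest spread, with 8.14, 6.32 and 6.26 CPM in KO mice and 9.08, 4.74 and 10.9 CPM in WT mice. WT replicate 3 was 2.30-fold above WT replicate 2, which had 144 counts.

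Within each genotype this order (WT replicate 3 above 1 above 2, and KO replicate 1 above 2 above 3) held in 8 of 11 chaperones, namely Hspa5, Hsp90b1, Sdf2l1, Pdia4, Pdia6, Calr, Creld2 and Manf. It also held in Xbp1, Edem1 and Sel1l, so in 11 of 30 members, against 4.10% of all genes tested and 0 of 4 sensors. The order was picked after the values were seen and is given as a description. Over the 11 chaperones the median ratio of WT replicate 3 to WT replicate 2 was 1.40 and that of KO replicate 1 to KO replicate 3 was 1.3, against 1.01 and 1 over all genes tested. The level within a genotype spanned a median of 0.38 log2 units in KO and 0.49 in WT for the chaperones, and 0.30 in KO and 0.22 in WT for all genes tested.

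**Figure D2:**
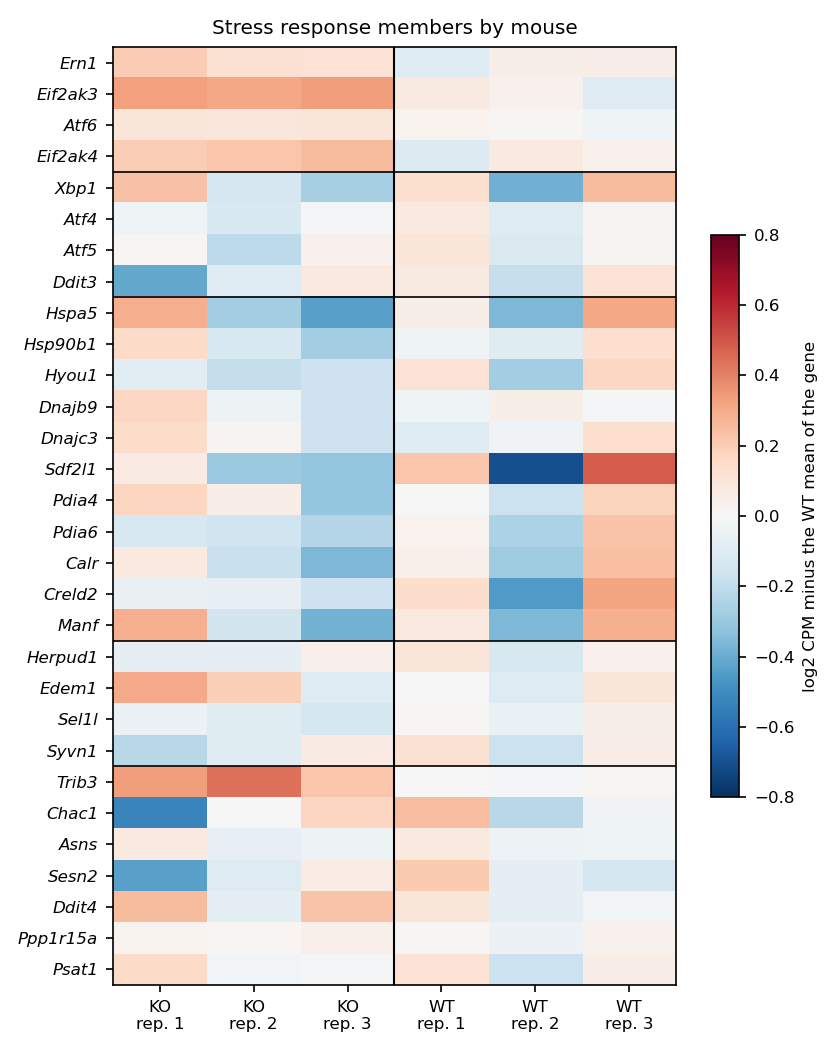
Log2 CPM of the 30 members in each mouse, minus the mean of the 3 WT mice for that gene, with KO mice left of the line and WT mice right of it and role groups separated by lines. The sensor rows at the top are red in all 3 KO mice, while the chaperone rows are mostly red in KO replicate 1 and WT replicate 3 and blue in KO replicate 3 and WT replicate 2.

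Chaperone promoters are known for the ER stress response element (ERSE), which binds the factor NF-Y at one end and ATF6 or XBP1 at the other. RefSeq promoters (GRCm38.p6, 250 bases before to 50 after each start) were matched by symbol for 27 of 30 members, all but Atf6, Hyou1 and Manf. The motif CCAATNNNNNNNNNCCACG was searched on both strands and found in 7 of these 27, namely Hspa5, Hsp90b1, Calr, Creld2, Pdia6, Dnajc3 and Syvn1, where 0.137% of 27025 genes with a promoter in the table had it. Except for Syvn1, a degradation gene, the 7 are chaperones, the group in which the order of mice was also most frequent. That order was picked from these values, and a link between it and the motif was not tested. The 6 stretches below come from the 5 genes with both, namely Hspa5, Hsp90b1, Calr, Creld2 and Pdia6. They are written 5′ to 3′ on the strand of the gene. Capitals mark the ERSE, read on the opposite strand in Calr, Creld2 and the second Hsp90b1 stretch.
Hspa5, chr2:34772020-34772048, plus strand: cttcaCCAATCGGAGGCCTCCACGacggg
Hsp90b1, chr10:86705608-86705686, minus strand: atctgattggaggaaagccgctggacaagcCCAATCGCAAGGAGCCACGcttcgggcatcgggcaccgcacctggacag
Hsp90b1, chr10:86705528-86705556, minus strand: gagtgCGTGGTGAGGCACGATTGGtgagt
Calr, chr8:84847045-84847123, minus strand: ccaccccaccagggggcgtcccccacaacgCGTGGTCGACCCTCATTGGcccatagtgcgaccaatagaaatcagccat
Creld2, chr15:88819490-88819568, plus strand: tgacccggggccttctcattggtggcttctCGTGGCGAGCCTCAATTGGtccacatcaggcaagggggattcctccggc
Pdia6, chr12:17266461-17266539, plus strand: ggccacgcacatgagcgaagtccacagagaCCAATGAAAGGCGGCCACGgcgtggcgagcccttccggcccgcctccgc

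Counted from the RefSeq start, the first base of the ERSE lay 65 bases before Hspa5 and 98 before Pdia6. The gene model of Hspa5 in the count table begins further upstream, so that its stretch lies inside that model. A motif match is a description of these letters and does not show binding. The shorter form ERSE-II (ATTGG and CCACG with 1 base between them) was found in 1 matched member, Herpud1, 52 bases before its start (0.0444% of genes). The XBP1 core TGACGTGG was found in 0 of 27 (0.714% of genes).

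The remaining chaperone and folding genes also overlapped between genotypes. Hsp90b1, the ER form of Hsp90 also called GRP94, had 501.6, 414.7 and 371.9 CPM in KO mice against 439.6, 421.1 and 495.1 CPM in WT mice (log2 fold change -0.08, SE 0.11, edgeR adjusted p = 0.856). Hyou1, an exchange factor and chaperone for BiP clients, stayed within 111.9 to 119.9 CPM in KO mice but spread over 105.3 to 143.5 CPM in WT mice. Pdia6, a disulfide isomerase, showed the same contrast, at 83.6 ± 3.18 CPM in KO and 95 ± 15.8 CPM in WT (SD, n = 3 each; log2 fold change -0.19, SE 0.12, edgeR adjusted p = 0.716). Dnajc3, the co-chaperone p58IPK, had a log2 fold change of 0.00 (SE 0.10, 95% interval -0.23 to 0.23). Dnajb9, a BiP co-chaperone of IRE1 (-0.01), Pdia4 (-0.03) and Creld2 (-0.13) completed the group, whose median was -0.13, with 10 of 11 below 0 (49.9% of all genes tested). Without WT replicate 3 this median was 0.08 and without WT replicate 2 it was -0.28.

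Levels per length put Calr and Hsp90b1 at the top of the 30 genes. On the scale of CPM per kilobase of gene model, Calr averaged 110.9 ± 17.1 in KO and 123.6 ± 22.2 in WT, and Hsp90b1 106.5 ± 16.4 in KO and 112.1 ± 9.55 in WT (SD, n = 3 each). Atf4, at 79.3 ± 3.19 in KO and 82.6 ± 5.18 in WT, and Hspa5, at 78.5 ± 21.9 in KO and 86 ± 19.6 in WT, came next. Atf4 had the higher mean of these in KO and Hspa5 in WT. Differences between genes were not tested. Among the sensors Atf6 (11.2 in KO, 10.5 in WT) and Eif2ak3 (10.9 in KO, 8.73 in WT) exceeded Eif2ak4 (5.24 in KO, 4.48 in WT) and Ern1 (2.35 in KO, 2.13 in WT). Trib3 was the lowest, at 0.463 in KO and 0.36 in WT.

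Markers of other cell types varied among the same mice. Oligodendrocyte markers, as a median of 9 genes in log2 CPM relative to the WT mean, stood at -0.12, -0.06 and 0.04 in KO replicates 1 to 3 and at 0.14, -0.26 and 0.07 in WT replicates 1 to 3. On the same scale the chaperones were at 0.14, -0.15 and -0.28 in KO and 0.04, -0.28 and 0.23 in WT. Choroid plexus markers (12 of 12 tested) summed to 2723.4, 7317.9 and 2316 CPM in KO mice and to 295.4, 6833.7 and 4582.2 CPM in WT mice. In a model with the choroid plexus level of each library instead of sex, the median log2 fold change of the chaperones was -0.09. It was -0.13 in the model with sex, and 0 members passed in either. The model with the choroid plexus level also drops the sex term, so these medians do not isolate choroid plexus content. Its part in the chaperone values was not tested on its own, and that of oligodendrocyte content was not tested. Cytosolic heat shock genes, which answer to HSF1 and lie outside the ER response, were at 0.07, -0.08 and -0.09 in KO and 0.13, -0.12 and 0.03 in WT, again lower in KO replicates 2 and 3 and in WT replicate 2. Among them Hspa8, the constitutive Hsp70 of the cytosol, gave 1697.5, 1393.9 and 1325 CPM in KO mice and 1701.2, 1343.4 and 1660.6 CPM in WT mice.

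**Figure D3:**
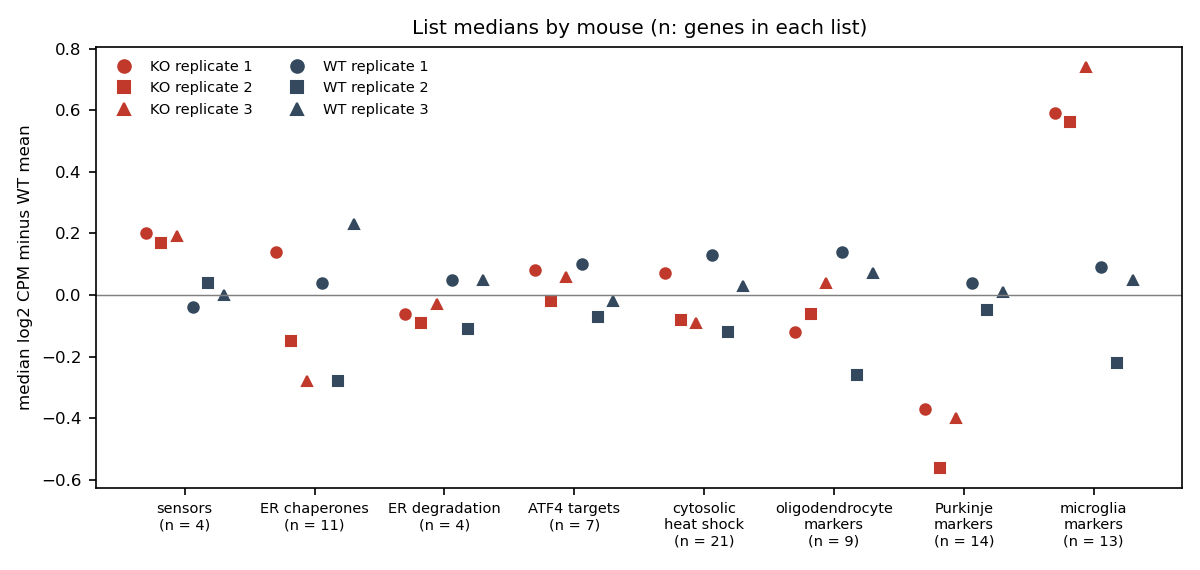
Median log2 CPM of each gene list per mouse, minus the WT mean of each gene, with KO mice in red left of WT mice in dark blue and n the genes in each list. The 3 KO mice lie together above the WT mice for the sensors, whereas the chaperones range from -0.28 to 0.14 in KO and from -0.28 to 0.23 in WT; Purkinje markers are lower and microglia markers higher in every KO mouse.

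Genes of ER-associated degradation, the route by which misfolded proteins leave the ER for the proteasome, were close to level between genotypes. Sel1l, the adaptor of the ubiquitin ligase HRD1, stood at 217.9, 210 and 203.8 CPM in KO mice, against 226.8, 216.4 and 231.9 CPM in WT mice. KO replicate 1 lay within the WT range and KO replicates 2 and 3 below it (log2 fold change -0.10, SE 0.06, 95% interval -0.24 to 0.05, edgeR adjusted p = 0.717). Syvn1, which encodes HRD1 itself, gave 43.7, 47.7 and 53.3 CPM in KO mice and 55.5, 45.2 and 52.9 CPM in WT mice (log2 fold change -0.09, SE 0.11, edgeR adjusted p = 0.855). It overlaps Mrpl49, with 94.3% of its counts. Herpud1, an ER membrane partner of HRD1, was at -0.04 (SE 0.08) and Edem1, a lectin that extracts misfolded glycoproteins, at 0.13 (SE 0.12), with edgeR adjusted p-values of 0.919 and 0.797.

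The targets of ATF4 showed no common direction, with 4 of 7 above 0 (50.1% of all genes tested), 3 below and a median log2 fold change of 0.03. Asns, asparagine synthetase and a widely used reporter of ATF4 activity, stood at 95.3, 86.2 and 87.8 CPM in KO mice, against 95.1, 87.6 and 88.3 CPM in WT mice. The genotypes were level, with a log2 fold change of -0.01 (SE 0.06, 95% interval -0.16 to 0.14, edgeR adjusted p = 0.977). Psat1, an enzyme of serine synthesis, was at 0.03 (SE 0.08, 95% interval -0.14 to 0.21, edgeR adjusted p = 0.916). Ppp1r15a encodes GADD34, the phosphatase subunit that reverses eIF2 phosphorylation. It gave 22.7, 22.5 and 22.9 CPM in KO mice and 22.4, 21.6 and 22.7 CPM in WT mice (log2 fold change 0.03, SE 0.09, edgeR adjusted p = 0.943).

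Trib3, a pseudokinase that feeds back on ATF4 and CHOP, had 25, 31 and 25 counts in KO mice and 23 counts in each WT mouse. Its CPM values did not overlap (0.984, 1.06 and 0.905 in KO against 0.765, 0.758 and 0.775 in WT), but the log2 fold change of 0.36 had an SE of 0.25 and a 95% interval of -0.20 to 0.93 (edgeR adjusted p = 0.734). Ddit4, an inhibitor of the growth kinase mTORC1, was at 0.14 (SE 0.10, edgeR adjusted p = 0.732).

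Chac1, a glutathione-degrading enzyme induced through ATF4, and Sesn2, a sestrin of the amino acid response, were lowest in the KO female. Chac1 gave 1.93, 2.82 and 3.18 CPM in KO mice against 3.36, 2.4 and 2.76 CPM in WT mice (log2 fold change -0.11, SE 0.24, edgeR adjusted p = 0.916). Sesn2 gave 10.2, 12.8 and 14.3 CPM in KO mice against 15.9, 13.1 and 12.5 CPM in WT mice (-0.16, SE 0.16, edgeR adjusted p = 0.826). In both genes the highest mouse was the WT female, so the pair of females differed more than the males did. Over all genes tested, KO replicate 1 was the lowest library in 28.5% and the highest in 27.9%, more often than any other library. With GC content and length offsets the log2 fold changes were -0.05 for Chac1 and -0.06 for Sesn2. The part of GC content and gene length in the values of the KO female was not tested.

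ATF4 with its C/EBP partners binds composite elements, and the motif TGATGNAA, searched on both strands, was found in the promoters of 4 of 27 matched members, Asns, Chac1, Herpud1 and Trib3 (4.51% of genes). The stretches of the first 2 are shown because both are ATF4 targets with the element before the RefSeq start, and capitals mark it, read on the opposite strand in Chac1. The stretch of Asns lies inside its gene model in the count table, which starts further upstream.
Asns, chr6:7693220-7693237, minus strand: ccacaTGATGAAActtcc
Chac1, chr2:119351019-119351086, plus strand: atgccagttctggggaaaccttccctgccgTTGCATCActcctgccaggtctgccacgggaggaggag

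Sex was balanced, and the test of a sex by genotype difference called 0 of 30 members and 0 of all genes tested in edgeR, with 5 of 30 members at an unadjusted p under 0.05, against 18.8% of all genes tested in that fit, so the members' share was no higher than that of all genes. Sesn2 had the lowest of these. Its log2 difference of KO over WT was -0.65 in the females and 0.08 in the males, a female minus male difference of -0.74 (SE 0.22, unadjusted p = 0.00771, edgeR adjusted p = 0.127). For Chac1 the values were -0.78 in females and 0.21 in males (difference -1.01, SE 0.39, edgeR adjusted p = 0.214). Hspa5 had values of the opposite sign, at 0.24 in females and -0.33 in males (difference 0.61, SE 0.48, edgeR adjusted p = 0.572). Each genotype had 1 female, so these values rest on a single pair of mice.

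**Figure D4:**
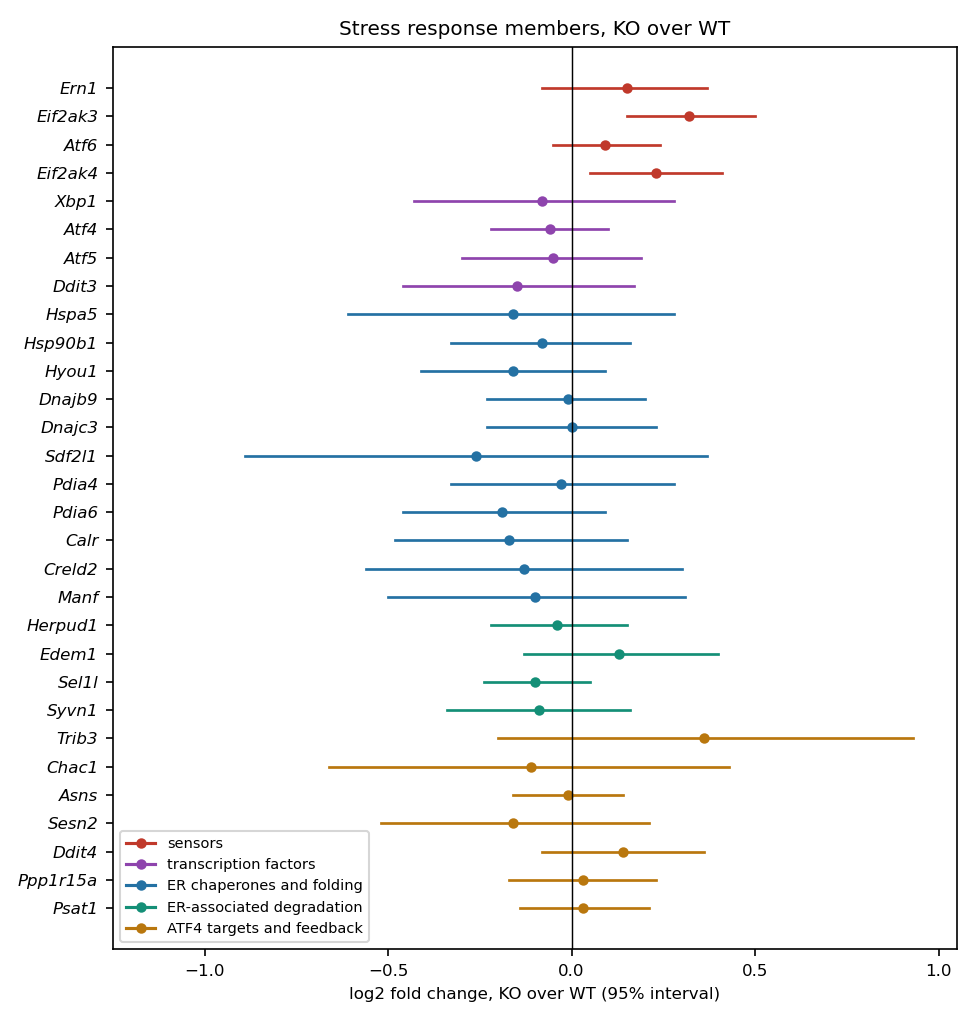
Log2 fold change of each member, KO over WT, with its 95% interval, coloured by role group. All 4 sensors lie above 0 with the intervals of Eif2ak3 and Eif2ak4 clear of it before adjustment, while the intervals of the other 28 members include 0.

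Beyond the 30 members, 105 of 108 other genes of these pathways were tested, and 0 rose and 0 fell in edgeR (0.283% of all genes tested in either direction). At an unadjusted p under 0.05 in edgeR there were 5 (8.96% of all genes tested). The median log2 fold change of the 105 was -0.01, with 61 below 0 (49.9% of all genes tested). DESeq2 and limma-voom called 0. Among sensors, factors and their processing enzymes, 0 of 22 passed, and Atf3, a stress-induced factor downstream of ATF4, had both the largest change and the lowest p. It stood at 3.74, 3.5 and 3.51 CPM in KO mice, against 2.16, 2.44 and 1.45 CPM in WT mice. Every KO mouse was above every WT mouse, with a log2 fold change of 0.83 (SE 0.22, unadjusted p = 0.00472, edgeR adjusted p = 0.241). Among 28 folding and translocation genes 0 passed, and Sec61a1, the pore subunit of the ER translocon, gave 65.5, 68.8 and 82.8 CPM in KO mice against 106.8, 87.6 and 90.1 CPM in WT mice. Its log2 fold change was -0.39 (SE 0.12, edgeR adjusted p = 0.332), and without KO replicate 3 it was -0.49 (SE 0.10, adjusted p = 0.0331).

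Of 22 degradation genes 0 passed. Derl3 had the largest fold change (-0.15, SE 0.32) at a low level, with means of 0.696 CPM in KO and 0.768 CPM in WT. Edem3, at 0.12 (SE 0.07, edgeR adjusted p = 0.689), had the lowest p. In the ATF4 programme, which includes genes of amino acid transport and synthesis and of transfer RNA charging, 0 of 33 passed. The largest change was that of Stc2, a secreted glycoprotein (0.45, SE 0.27, edgeR adjusted p = 0.695). Stc2 was low, with means of 1.02 CPM in KO and 0.743 CPM in WT. The lowest p was that of the transsulfuration enzyme gene Cbs (-0.20, SE 0.10, edgeR adjusted p = 0.648). Cytosolic heat shock genes gave 0 of 21, with 16 below 0 (49.9% of all genes tested). The inducible Hsp70 gene Hspa1a had the largest change, at 0.44 (SE 0.18, edgeR adjusted p = 0.533). The small heat shock protein gene Hspb8 had the lowest p, at 27.4 ± 1.52 CPM in KO and 34.8 ± 3.29 CPM in WT (SD, n = 3 each; -0.34, SE 0.10, edgeR adjusted p = 0.311). Mitochondrial chaperones and proteases gave 0 of 12, with Spg7, a protease subunit of the inner membrane, at -0.24 (SE 0.10, edgeR adjusted p = 0.509).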

How the data were processed

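The authors deposited raw read counts per gene and library, with gene coordinates, length and symbol, per the file headers. STAR and mm10 are named in the submitters' processing notes. No source used here gives the counting tool, the strand setting or the annotation. All 37 mitochondrial genes held 0 counts, and 27 symbols that had been read as dates were restored through Ensembl identifiers. A check for duplicate libraries gave a chi-square per degree of freedom of 7.48 to 31.3 between libraries of 1 genotype, so none was counted as a repeat. A code in the sample titles, whose meaning the labels do not give, is shared by KO replicates 1 and 2 and WT replicate 1, and its part in the values was not tested. The labels do not say how the mice were related or housed. The p-values set the genotype difference against the variation among these 6 libraries that sex and genotype leave, treating each mouse as independent.

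edgeR 4.0.16 in R 4.3.3 was run with filterByExpr (minimum count 10, minimum total 15), TMM scaling and a model of sex and genotype. The two-sided quasi-likelihood F test (robust glmQLFit) had p-values adjusted across every tested gene (Benjamini-Hochberg, threshold 0.05). SE is the size of the log2 fold change over the root of F, and 95% intervals use the degrees of freedom of the model. Per-mouse medians of lists rest on log2 CPM (prior count 2). The 16 alternatives were other size factors (RLE), no filter, a filter at a mean of 1 CPM, DESeq2 1.42.0, limma-voom (limma 3.58.1), no sex term, males only, a choroid plexus score instead of sex, GC content and length offsets (loess, span 0.5), a threshold of 0.10 and leaving out each of 6 libraries. The fits by edgeR, DESeq2 and limma-voom of KO against WT were tested on simulated counts, with changes of 2 sizes. There edgeR recovered 70.3% of the smaller and 95.3% of the larger changes. Both sizes exceeded the change of any member, so recovery of changes as small as those of the members was not measured. The members and lists were chosen with earlier results of these data known. Genes to name were all members, Tmem106b, and in each further list the genes with the largest change and the lowest p. Hspa8 was named after its values were seen.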

Additional observations from a re-analysis of the deposited data

How the results depend on the processing

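No paired analysis was possible because the replicate numbers follow the order of deposit and the labels give no pairs. Of the 30 members, 12 kept the sign of their log2 fold change in every alternative in which they were fitted. Among these 12, Trib3 was fitted in 15 of the 16 alternatives, with no fit under the filter at a mean of 1 CPM. Another sign was found in 44 of 479 member fits, and none of these 44 passed the threshold. The counts of higher and lower genes here and in the next paragraph are of genes past the adjusted p threshold of each fit. Members higher in KO by that rule numbered 0, and 1 in DESeq2 and 1 with GC content and length offsets (Eif2ak3 both times). The members' median was -0.06, and 0.06 without WT replicate 3.

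Over all genes, 23 were higher in KO, against 78 with no filter, 91 in DESeq2, 40 in males only, 39 with a choroid plexus score in place of sex, 105 with GC content and length offsets, 41 at an adjusted p under 0.10, and 0 to 67 with 1 library left out (0 without WT replicate 2, 67 without KO replicate 3). Lower in KO were 25, against 44 with RLE size factors, 121 with no filter, 45 with a mean of at least 1 CPM, 141 in DESeq2, 71 in males only, 167 with GC content and length offsets, 68 at an adjusted p under 0.10, and 1 to 89 with 1 library left out (1 without WT replicate 2, 89 without KO replicate 3). Pathway genes outside the members that were lower in KO numbered 0, and 0 to 1 with 1 library left out (Sec61a1 without KO replicate 3). The cause was not tested. Trib3 rests on 23 to 31 counts per library.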
